A study of Mus musculus with 2 samples.

Results

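Apoe, Trem2, Gpnmb, Fabp4, Fabp5, Spp1, Lpl and Cd36, 8 genes known as markers of lipid-associated macrophages, were followed through the single cells of omental ovarian tumors. They were chosen by symbol, and each matched 1 of the 32285 genes counted in the 2 libraries. Tumors came from KPCA, a mouse line of high-grade serous ovarian cancer whose alterations include mutant Trp53 and overexpressed Ccne1 and Akt2. KPCA.FSTKO cells lack Fst, the gene of the activin inhibitor follistatin. KPCA.FSTKO_hFSTL3 is 1 stable clone of KPCA.FSTKO cells, transfected with an expression plasmid for human FSTL3 and picked under geneticin for the FSTL3 it secreted, so that both lines lack Fst. Cells were grafted into the peritoneum of female C57BL/6J mice aged 12 to 16 weeks, and at day 10 post-graft 4 omental tumors of each genotype were pooled into 1 library. As each genotype is 1 library, replicates and tests are lacking, and the 95% intervals given below cover counting error only.

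Lipid-associated macrophages take up lipoproteins and the debris of dead cells, and they occur in fatty tissue, in atherosclerotic plaques and in tumors. ApoE, made by the macrophage itself, carries cholesterol out of the cell and is also a ligand of the receptor TREM2, which signals through the adaptor TYROBP. Lipoprotein lipase (Lpl) frees fatty acids from lipoproteins, CD36 takes them up, FABP4 and FABP5 carry them inside the cell, GPNMB sits in the lysosome, where engulfed material is broken down, and osteopontin (Spp1) is a secreted ligand of integrins and CD44. The omentum, from which the tumors were taken, is a fatty tissue rich in macrophages. None of these genes is restricted to macrophages, since Fabp4 and Cd36 also mark capillary endothelium and adipocytes, Lpl is made by adipocytes and some fibroblasts, and Spp1 by many carcinomas.

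In the annotation of the mouse build GRCm38, all 8 are protein-coding genes. Apoe lies at chr7:19696109-19699188, Trem2 at chr17:48346401-48354147, Gpnmb at chr6:49036546-49070929, Spp1 at chr5:104435118-104441050 and Cd36 at chr5:17781690-17888801. Lpl lies at chr8:68880491-68907448. Fabp5 (chr3:10012548-10016607) and Fabp4 (chr3:10204088-10208576) are paralogs and lie on 1 chromosome. Whether reads from stretches that the paralogs share bear on their counts was not tested. Apoe, Cd36 and Fabp4 are on the minus strand and the other 5 on the plus strand.

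RefSeq promoters (build GRCm38.p6) were at hand for 5 of the 8 genes, and the 250 bases before the start site were searched on both strands for 3 motifs. These were GAGGAAGT, a core bound by the macrophage factor PU.1, TGACTCA, the AP-1 site, and the palindrome CACGTG, the E-box read by the lysosomal regulators of the MiT/TFE family. Of 32851 promoters of the same length, 2.44% held GAGGAAGT, 4.46% held TGACTCA and 6.02% held CACGTG. Among the 5 members, the 1 match was GAGGAAGT in Spp1, beginning 113 bases before the start. The promoters of Trem2, Gpnmb and Spp1 are printed because these genes were found in macrophages and in a second class of cells, and that of Ctsd, a lysosomal protease gene, because its UMIs varied with those of Gpnmb over macrophages. Sequences run 5′ to 3′, and capitals mark the motif matches, which in Ctsd are CACGTG at 245 and at 98 bases before the start. A match describes the letters of the window only.
Trem2 (chr17:48346151-48346400, plus strand): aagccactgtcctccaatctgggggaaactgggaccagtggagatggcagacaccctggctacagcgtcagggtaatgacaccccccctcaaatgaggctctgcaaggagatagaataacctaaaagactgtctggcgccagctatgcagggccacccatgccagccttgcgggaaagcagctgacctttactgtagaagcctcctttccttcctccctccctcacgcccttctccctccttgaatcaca
Gpnmb (chr6:49036268-49036517, plus strand): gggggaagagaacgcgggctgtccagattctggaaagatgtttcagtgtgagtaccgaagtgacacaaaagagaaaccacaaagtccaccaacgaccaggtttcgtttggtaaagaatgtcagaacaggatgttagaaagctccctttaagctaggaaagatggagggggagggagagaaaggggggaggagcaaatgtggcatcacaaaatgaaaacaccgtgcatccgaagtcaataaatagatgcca
Spp1, first of 2 entries (chr5:104434861-104435110, plus strand): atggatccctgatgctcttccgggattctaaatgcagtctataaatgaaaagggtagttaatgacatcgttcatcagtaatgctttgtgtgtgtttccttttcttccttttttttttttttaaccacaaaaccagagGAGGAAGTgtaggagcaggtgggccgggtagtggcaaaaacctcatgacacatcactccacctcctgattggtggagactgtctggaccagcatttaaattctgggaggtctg
Ctsd (chr7:142387828-142388077, minus strand): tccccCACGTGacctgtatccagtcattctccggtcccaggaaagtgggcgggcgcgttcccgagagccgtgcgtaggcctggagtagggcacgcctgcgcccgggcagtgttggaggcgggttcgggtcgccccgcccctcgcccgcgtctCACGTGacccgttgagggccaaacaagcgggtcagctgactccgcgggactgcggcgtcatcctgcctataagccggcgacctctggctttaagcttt

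The KPCA.FSTKO library held 7582 barcodes and 168214773 UMIs (unique molecular identifiers, 1 per captured transcript), and the KPCA.FSTKO_hFSTL3 library held 4244 barcodes and 80391504 UMIs. After the filters of the methods 6777 and 4041 cells were left, with a median of 17253 and 15071 UMIs per cell, and 10 barcodes occurred in both libraries. Macrophages were defined as cells with at least 5 UMIs of the complement genes C1qa, C1qb and C1qc together and at least 1 UMI of the leukocyte gene Ptprc. This gate held 827 KPCA.FSTKO cells (12.2%) and 1347 KPCA.FSTKO_hFSTL3 cells (33.3%). The cells of the 2 gates did not look alike. In KPCA.FSTKO_hFSTL3, 1196 of the 1347 gated cells (88.8%) lay in clusters that also carried pancreatic acinar genes, here called mixed clusters, against 2 of 827 in KPCA.FSTKO. These 1196 cells had a median of 28 C1q UMIs and a mitochondrial share of 11.7%, whereas the 151 gated cells outside mixed clusters had 125 C1q UMIs and 3.78%, near the 95 C1q UMIs and 3.99% of KPCA.FSTKO. Markers of many classes occurred in the mixed cells at once: summed over each list, the 17 acinar markers stood at 9571 CPM (UMIs per 1000000 UMIs of the class), the 13 cancer markers at 3533, the 12 fibroblast markers at 1794 and the 10 macrophage markers at 1552. All 10 macrophage markers were found in the gate of each library, but the list holds the C1q genes that chose the gate. Outside mixed clusters the 10 stood at 10220.4 CPM in KPCA.FSTKO and 10112 CPM in KPCA.FSTKO_hFSTL3, of which C1q made up 7017 and 7084 CPM, while the acinar markers stood at 87 and 1489 CPM. The gate and its cells outside mixed clusters are therefore given side by side, and levels in macrophages are those outside mixed clusters unless the whole gate is named. Just inside the gate, 42 and 91 cells had 5 to 9 C1q UMIs, and just outside it 173 and 62 cells with Ptprc had 1 to 4.

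**Figure D1:**
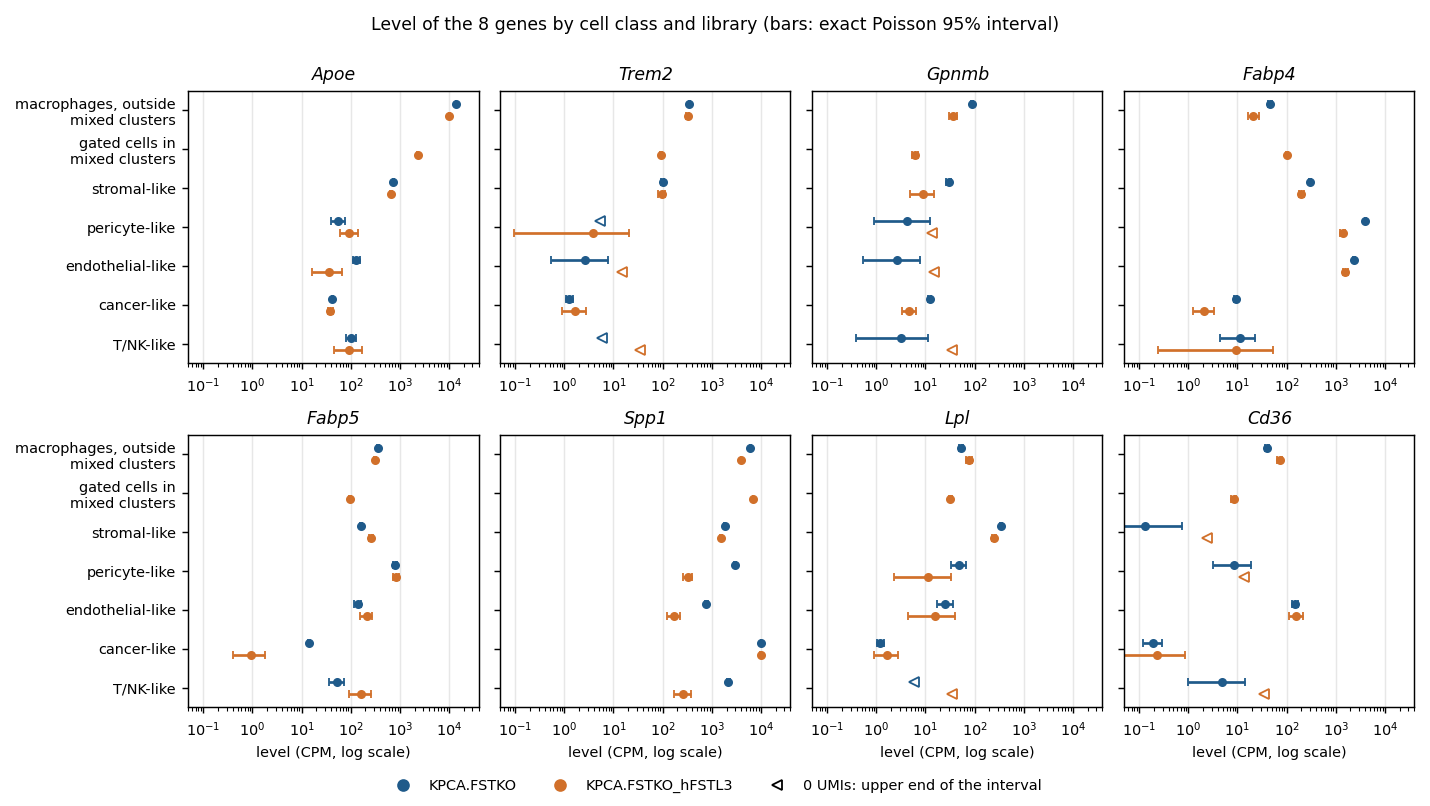
Level of each gene (CPM, log scale) in 7 classes, with KPCA.FSTKO in blue and KPCA.FSTKO_hFSTL3 in orange. Bars are exact Poisson 95% intervals, with open triangles at the upper end of the interval where no UMI was found. Apoe and Trem2 are highest in macrophages, Spp1 in cancer-like cells, Lpl in stromal-like cells, Fabp4 in pericyte-like and endothelial-like cells, and Cd36 in endothelial-like cells.

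In KPCA.FSTKO, Apoe was the member with the highest share of its UMIs in macrophages. It stood at 13992 CPM (95% interval 13927 to 14057) in 825 KPCA.FSTKO macrophages and at 10177 CPM (10064 to 10291) in 151 KPCA.FSTKO_hFSTL3 macrophages. Macrophages gave 87.1% of all its UMIs in KPCA.FSTKO and, outside mixed clusters, 19.8% in KPCA.FSTKO_hFSTL3, where Cd36 (27.8%) and Gpnmb (21.2%) had higher shares. Among the classes given here, mixed cells aside, stromal-like cells followed with 731 CPM in KPCA.FSTKO and 659.9 CPM in KPCA.FSTKO_hFSTL3. Levels were lower in endothelial-like cells (130.3 and 35.9 CPM), T/NK-like cells (102 and 93.6 CPM), pericyte-like cells (55.8 and 94.1 CPM) and cancer-like cells (42.4 and 38.7 CPM). Among these 4 classes of KPCA.FSTKO, the intervals of endothelial-like and T/NK-like cells overlapped, as did those of pericyte-like and cancer-like cells. An Apoe UMI was found in 99.4% of KPCA.FSTKO macrophages (median 13812 UMIs per cell). It was also found in 49.5% of the 95 T/NK-like cells (median 4509 UMIs) and 64% of cancer-like cells (median 29409.5 UMIs). Whether T/NK-like and cancer-like cells expressed it was not tested. Per 100 C1q UMIs, Apoe had 199 UMIs in macrophages, 219.7 in cancer-like cells and 142 in T/NK-like cells of KPCA.FSTKO, but 1601 in stromal-like cells.

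Among KPCA.FSTKO macrophages, Apoe ranged widely, from 1483 CPM at the 10th percentile over a median of 10450.2 to 40178 CPM at the 90th percentile. The same 3 points were 1034, 8882 and 25684 CPM in KPCA.FSTKO_hFSTL3 macrophages. Over cells, the UMIs that varied most like those of Apoe were C1qa (Pearson r = 0.67 over 827 gated KPCA.FSTKO cells and 0.67 over the 151 KPCA.FSTKO_hFSTL3 cells), C1qb (0.65 and 0.65) and the lysozyme gene Lyz2 (0.63 and 0.62). C1qa and C1qb chose the gate, and all such coefficients are taken over cells that share 1 library and differ in depth. With each cell thinned to 1000 UMIs, the KPCA.FSTKO coefficients of C1qa, C1qb and Lyz2 were 0.53, 0.49 and 0.56.

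Trem2, the lipid receptor of this group, was found in macrophages and, at a lower level, in stromal-like cells. It stood at 349 CPM (338 to 359) in KPCA.FSTKO macrophages and 323 CPM (303 to 344) in KPCA.FSTKO_hFSTL3 macrophages, with intervals that overlapped. Stromal-like cells had 101 CPM (93.8 to 108, 436 cells) and 96.2 CPM (81.4 to 113, 63 cells). Elsewhere it was low. Cancer-like cells had 1.27 and 1.64 CPM, and in KPCA.FSTKO endothelial-like cells had 3 UMIs in 131 cells and pericyte-like cells had none in 46. No T/NK-like cell of KPCA.FSTKO had a Trem2 UMI (0 of 95 cells, which allows a share of cells with a UMI of up to 3.16%), against 90.1% of macrophages and 51.6% of stromal-like cells, but T/NK-like cells were shallower, with a median of 4509 UMIs against 13812 and 16214. With each cell thinned to 1000 UMIs, the shares were 26.9% of macrophages and 7.33% of stromal-like cells, beside 0 of the 95 T/NK-like cells. In KPCA.FSTKO, macrophages held 77.7% of all Trem2 UMIs and stromal-like cells 13.1%.

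The Trem2 UMIs of stromal-like cells were set against those of C1q and of the adaptor gene Tyrobp. Per 100 C1q UMIs there were 221 Trem2 UMIs in KPCA.FSTKO stromal-like cells, against 4.97 in macrophages and 6.57 in cancer-like cells, and 363 against 4.56 in the stromal-like cells and macrophages of KPCA.FSTKO_hFSTL3. In the 221 KPCA.FSTKO stromal-like cells without a UMI of C1qa, C1qb, C1qc or Tyrobp, Trem2 stood at 104 CPM (93.8 to 115), from 376 UMIs in 48% of the cells. The 31 such cells of KPCA.FSTKO_hFSTL3 gave 93.8 CPM (73.2 to 118). These intervals overlapped those of all stromal-like cells of the same library. Over the 436 stromal-like cells Trem2 varied most like Nnmt (r = 0.41), an enzyme of nicotinamide metabolism, Wnt4 (0.40) and Clu (0.37), whereas over macrophages it varied most like C1qb (0.56), Apoe (0.49) and C1qa (0.49). After thinning the macrophage coefficients were 0.14, 0.23 and 0.20.

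**Figure D2:**
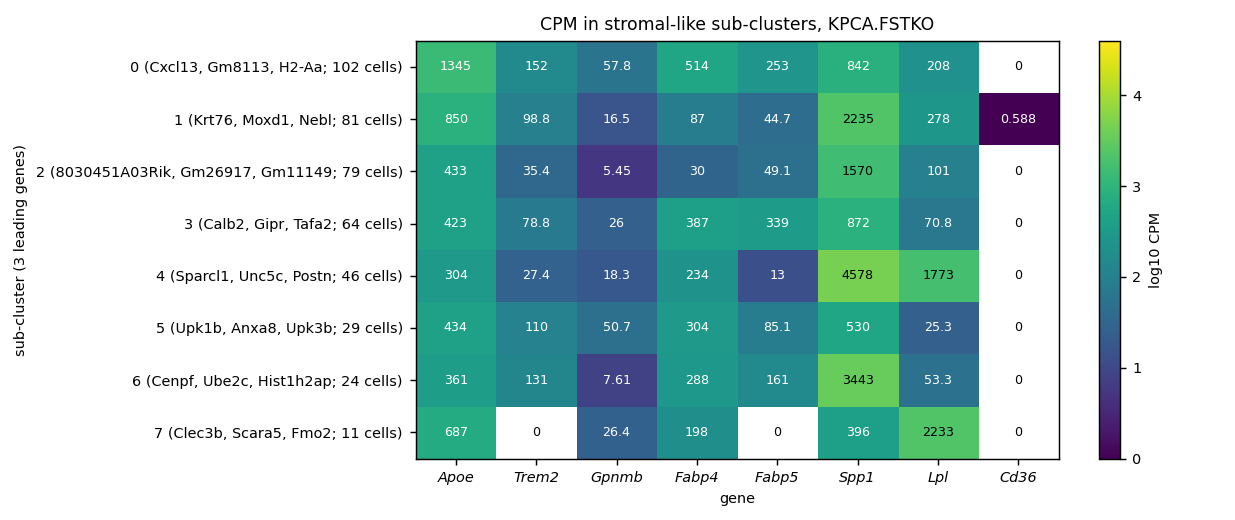
Level of the 8 genes (columns, CPM printed in each cell, color on a log10 scale, white for 0) in the 8 sub-clusters of KPCA.FSTKO stromal-like cells (named by number, 3 leading genes and number of cells). Trem2 is highest in the Cxcl13-led sub-cluster and Lpl in those led by Sparcl1 and by Clec3b.

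Stromal-like cells were clustered again to see where the members lay. In KPCA.FSTKO, Trem2, Apoe and Fabp4 were each highest in a sub-cluster led by the chemokine gene Cxcl13 (102 cells), at 152 CPM for Trem2 (135 to 171), 1345 CPM for Apoe and 514 CPM for Fabp4. In KPCA.FSTKO_hFSTL3 the 21 cells of that sub-cluster had 152 CPM of Trem2 (120.1 to 189). The myeloid genes Cd14 and H2-Aa were among its leading genes, and it held C1qa at 45.1 and Tyrobp at 25.9 CPM in KPCA.FSTKO, where 1 cell had 57 of 82 C1qa UMIs, and 9.6 CPM of either gene in KPCA.FSTKO_hFSTL3. The part of these genes in the Trem2 level was not tested. In KPCA.FSTKO Trem2 also stood at 131 CPM (107 to 158) in cells led by the cell-cycle genes Cenpf and Ube2c and at 110.4 CPM (84.5 to 142) in cells led by the mesothelial genes Upk1b and Upk3b, intervals that overlapped each other and that of the Cxcl13-led cells. In KPCA.FSTKO_hFSTL3 it was highest in the 6 Cenpf-led cells, at 177 CPM (118 to 254), where 1 cell had 21 of 29 UMIs. In the Cenpf-led cells 8 of the 13 cancer markers were raised. In KPCA.FSTKO Trem2 was lowest in the Sparcl1-led (27.4 CPM) and Clec3b-led (0 UMIs in 11 cells, with an upper limit of 48.7 CPM) sub-clusters, in each of which 8 of the 12 fibroblast markers were raised. The 79 cells led by 8030451A03Rik were shallow, with a median of 2844 UMIs over both libraries, and had 35.4 CPM.

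Gpnmb, a glycoprotein of lysosomes and melanosomes, was raised in macrophages but spread over many cells at low level. Macrophages had 88.2 CPM (83.1 to 93.5) in KPCA.FSTKO and 35.9 CPM (29.5 to 43.3) in KPCA.FSTKO_hFSTL3. Stromal-like cells had 29.7 and 9.04 CPM and cancer-like cells 12.1 and 4.69 CPM. In each of these 3 classes the KPCA.FSTKO interval lay above that of KPCA.FSTKO_hFSTL3. The 3476 cancer-like cells, with a median of 29409.5 UMIs, held 46.2% of all Gpnmb UMIs of KPCA.FSTKO and macrophages 39.9%. Most macrophages had no Gpnmb UMI (69.7% in KPCA.FSTKO and 78.1% in KPCA.FSTKO_hFSTL3), while the highest cell had 2894 CPM. The share of cells with a Gpnmb UMI was 30.3% of KPCA.FSTKO macrophages, 22% of cancer-like cells and 2.11% of T/NK-like cells, and after thinning 8.51% of macrophages and 1.56% of cancer-like cells. Its UMIs varied over macrophages most like those of 3 lysosomal genes, Atp6v0d2, a subunit of the proton pump (r = 0.34 in KPCA.FSTKO and 0.39 in KPCA.FSTKO_hFSTL3), and the cathepsins Ctsb (0.32 and 0.33) and Ctsd (0.31 and 0.30).

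Fabp4, the fatty acid carrier of adipocytes and capillaries, had its highest levels in the vessel wall classes among those given here. It stood at 4017 CPM (3870.1 to 4169, 46 cells) in pericyte-like cells and 2334 CPM (2246 to 2425, 131 cells) in endothelial-like cells of KPCA.FSTKO, and at 1378 CPM (1241 to 1527, 11 cells) and 1578 CPM (1427 to 1742, 22 cells) in KPCA.FSTKO_hFSTL3, where the 2 intervals overlapped. Stromal-like cells followed with 298 and 198 CPM, and macrophages had 45.8 and 21.1 CPM. Pericyte-like, endothelial-like and stromal-like cells held 29.8%, 28.1% and 23.5% of the Fabp4 UMIs of KPCA.FSTKO, and macrophages 6.2%. Of the Fabp4 UMIs of KPCA.FSTKO_hFSTL3, mixed cells had 2807 inside and 2576 outside the gate. Endothelial-like cells had 396 and pericyte-like cells 366. Over endothelial-like cells Fabp4 varied with Gpihbp1, the endothelial anchor of lipoprotein lipase (r = 0.59), and Sparc (0.57).

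Within the gate Fabp4 rested on a few cells. Of the 825 KPCA.FSTKO macrophages 86.8% had no Fabp4 UMI, and the 42 cells with most held 518 of 585 UMIs, of which 1 cell had 320. Those 42 cells also had more of the markers of other classes than the remaining 783. Their summed endothelial markers stood at 566 against 33.1 CPM, pericyte markers at 177 against 5.42 CPM, and fibroblast markers at 2203 against 280.2 CPM, and the part of these cells in the result was not tested. Adipocyte markers stood at 1.26 and 0.668 CPM. Across the KPCA.FSTKO gate 4 of the 8 adipocyte markers were at 0 (Adipoq, Cidec, Lep and Pck1), and in KPCA.FSTKO_hFSTL3 6 were at 0 outside mixed clusters, Adipoq and Lep among them. In the remaining cells Fabp4 stood at 5.59 CPM in KPCA.FSTKO and 3.17 CPM in KPCA.FSTKO_hFSTL3, low because the cells with most were taken out. T/NK-like cells of KPCA.FSTKO, from which no cells were taken out, had 11.2 CPM (4.49 to 23), so the levels are not compared. The 14 gated KPCA.FSTKO cells that lay in clusters of other classes held 340 of the UMIs, 320 of them in 1 cell. In the macrophage-like cluster itself Fabp4 stood at 20.6 CPM (18.1 to 23.4) and 23.3 CPM (17.5 to 30.3), with intervals that overlapped. There 1 of the 125 KPCA.FSTKO_hFSTL3 cells had 38 UMIs, and the highest of the 768 KPCA.FSTKO cells had 31. The genes nearest to Fabp4 over the gated cells were the vessel basement membrane collagens Col4a2 (r = 0.28) and Col4a1 (0.24) and Ctla2a (0.25).

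Fabp5, the second fatty acid carrier, behaved as a gene of both macrophages and pericyte-like cells. Macrophages had 361 CPM (351 to 372) in KPCA.FSTKO and 313 CPM (294 to 334) in KPCA.FSTKO_hFSTL3. Pericyte-like cells had 797 CPM (732 to 866) and 825 CPM (719 to 941), the highest level in each library, and stromal-like cells 162 and 256 CPM. Endothelial-like cells had 138 and 211 CPM and cancer-like cells 14.3 and 0.938 CPM. Macrophages held 51.4% of the Fabp5 UMIs of KPCA.FSTKO. A Fabp5 UMI was found in 69.8% and 69.5% of macrophages and in 24.2% of the shallower T/NK-like cells of KPCA.FSTKO. Thinned to 1000 UMIs per cell, these shares were 25.4%, 19.2% and 5.26%. Over KPCA.FSTKO macrophages Fabp5 varied with the survival gene Bcl2a1b (r = 0.42) and the lysosomal protease genes Ctsb (0.40) and Lgmn (0.39). In stromal-like cells Fabp5 and Fabp4 were nearest to each other (r = 0.48), with the caution on shared reads given above, and both were high in the sub-cluster led by Calb2, at 339 and 387 CPM in 64 KPCA.FSTKO cells.

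Spp1, the secreted ligand osteopontin, was most abundant in cancer-like cells. These had 10183 CPM (10164 to 10202) in KPCA.FSTKO and 9828 CPM (9762 to 9895) in KPCA.FSTKO_hFSTL3, and they held 87% of the Spp1 UMIs of KPCA.FSTKO. Mixed cells aside, macrophages came next among the classes given here, with 6135 CPM (6092 to 6178) and 3929.6 CPM (3859 to 4001). Spp1 was also found in T/NK-like cells, at 2190.5 CPM in KPCA.FSTKO and 262 CPM in KPCA.FSTKO_hFSTL3. A Spp1 UMI was found in 94.7% of those of KPCA.FSTKO, and whether these cells made it was not tested. In KPCA.FSTKO the endothelial-like (767 CPM) and stromal-like (1834 CPM) levels lay below that of T/NK-like cells and the pericyte-like level (2947 CPM) above it. Stromal-like cells were not uniform, with 4578 CPM in their Sparcl1-led and 3443 CPM in their Cenpf-led sub-cluster, and in KPCA.FSTKO_hFSTL3 they had 1544 CPM, above the T/NK-like level. After thinning, 83.1% of KPCA.FSTKO macrophages and 57.9% of T/NK-like cells had a Spp1 UMI. Single macrophages differed widely, from 479 CPM at the 10th to 14584 CPM at the 90th percentile in KPCA.FSTKO and from 175 to 8584 CPM in KPCA.FSTKO_hFSTL3. Over macrophages Spp1 varied with the protease gene Ctsl (r = 0.41 and 0.30), the arginase gene Arg1 (0.38 and 0.46) and Hilpda, a lipid droplet gene induced by hypoxia (0.35 and 0.32).

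Lpl was a gene of fibroblast-like stroma first and of macrophages second. Stromal-like cells had 345 CPM (332 to 358) in KPCA.FSTKO and 246 CPM (222 to 272) in KPCA.FSTKO_hFSTL3, and held 72.6% of the Lpl UMIs of KPCA.FSTKO. Macrophages had 52.7 CPM (48.8 to 56.9) and 76.7 CPM (67.2 to 87.2). Pericyte-like cells had 47.2 and 11.3 CPM, and endothelial-like cells 25.5 and 15.9 CPM, the former from 29 UMIs of which 1 cell had 28. No T/NK-like cell had a UMI (0 of 95 in KPCA.FSTKO, which allows a share of cells with a UMI of up to 3.16%), but these cells were shallow, and after thinning the shares were 16.5% of stromal-like cells and 5.22% of macrophages. Within the stroma, Lpl set 2 sub-clusters apart, with 1773 CPM (1679.9 to 1869.8) in the 46 KPCA.FSTKO cells led by Sparcl1 and Postn and 2233 CPM (1909 to 2596) in the 11 cells led by Clec3b and Scara5, against 25.3 to 278 CPM in the others. The few cells of these sub-clusters in KPCA.FSTKO_hFSTL3 had 1137 CPM (5 cells) and 2613 CPM (6 cells). The stromal genes nearest to Lpl were Sparcl1 (r = 0.63), Cygb (0.58) and Ctsk (0.58). In macrophages the coefficients were low, with Crip1 (0.26), Gpx1 (0.24) and Grk5 (0.20) nearest.

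Cd36, the fatty acid and oxidized lipoprotein receptor, was a gene of endothelial-like cells and macrophages. Endothelial-like cells had 149 CPM (127 to 173) in KPCA.FSTKO and 155 CPM (111 to 212) in KPCA.FSTKO_hFSTL3. Macrophages had 39.4 CPM (36.1 to 43) and 72.1 CPM (62.9 to 82.3), and held 59.2% of the Cd36 UMIs of KPCA.FSTKO, against 19.9% in endothelial-like cells. Stromal-like cells had 1 UMI in 436 cells and 0 in 63, and cancer-like cells 0.194 and 0.235 CPM. It was seen in few macrophages (14.9% and 25.8%), against 2.11% of T/NK-like cells of KPCA.FSTKO. The genes nearest to it over macrophages were Ednrb (r = 0.27 and 0.26), the phospholipid transfer protein gene Pltp (0.25 and 0.34) and Igf1 (0.25 and 0.31). In endothelial-like cells they were Castor1 (0.56), Mylip (0.54) and Tmcc3 (0.51).

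The comparison of the gate with the other classes within KPCA.FSTKO asked which members set macrophages apart. A gene is called higher or lower here when it has at least 100 UMIs over both sides and a CPM ratio of at least 2, which is a rule of size and not a test. Over cancer-like cells 7 of the 8 members were higher and none lower, where 15.9% of 13470 genes were higher and 28.1% lower. The ratios ran from 328 (95% interval 319 to 338) for Apoe and 274 (95% interval 231 to 327) for Trem2 over 201.4 for Cd36, 43.3 for Lpl, 25 for Fabp5, 7.24 for Gpnmb and 4.91 for Fabp4 to 0.601 (95% interval 0.596 to 0.605) for Spp1. Over endothelial-like cells 6 members were higher and 2 lower (16.2% and 17.2% of 9331 genes, a split of 1515 and 1603 that became 2130 and 1021 with TMM scaling, which moved ratios by 0.39 in log2 and left the 8 calls as they were). The lower ones were Fabp4, at 0.0195 (95% interval 0.0178 to 0.0213), and Cd36, at 0.263 (95% interval 0.221 to 0.315), and the higher ones ran from 2.06 (95% interval 1.42 to 3.1) for Lpl to 131 (95% interval 45 to 638) for Trem2, which had 3 endothelial UMIs. The Lpl ratio rested on 1 endothelial-like cell, and for macrophages outside mixed clusters it was 57.6 without it. Likewise the Fabp4 ratio over cancer-like cells was 2.24 without the 1 macrophage with most Fabp4 UMIs. Over stromal-like cells 6 were higher and 2 lower (15.2% and 18.2% of 10613 genes). Lpl and Fabp4 were lower, at 0.152 (95% interval 0.14 to 0.166) and 0.153 (95% interval 0.139 to 0.168), Apoe was higher at 19, and Trem2 (3.44), Spp1 (3.34), Gpnmb (2.95) and Fabp5 (2.22) lay between 2 and 4. Cd36 was higher at 292 (95% interval 52.1 to 11547), a ratio that rests on 1 stromal UMI. Apoe, Trem2, Gpnmb and Fabp5 were the members higher in macrophages than in each of the 3 classes. As a group the 8 genes did not follow macrophages alone.

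In KPCA.FSTKO_hFSTL3 the macrophages outside mixed clusters were set against the other classes in the same way. Over cancer-like cells the ratio was 263 for Apoe, 197 for Trem2 and 0.40 for Spp1, and over stromal-like cells 15.4 for Apoe, 3.36 for Trem2, 0.312 for Lpl and 0.106 for Fabp4. Over endothelial-like cells Fabp4 stood at 0.0133 and Cd36 at 0.464, and the latter was 0.981 without 1 of the 22 endothelial-like cells. Fabp5 was nearer to 1, at 1.22 (95% interval 1.09 to 1.38) over stromal-like and 1.48 (95% interval 1.12 to 2.0) over endothelial-like cells. These ratios rested on few cells. Of the 151 macrophages 1 had 197 of 952 Fabp5 UMIs and of the 63 stromal-like cells 1 had 241 of 397. Over stromal-like cells the ratio was 0.976 without that macrophage, 3.02 without that stromal-like cell and 2.41 without both. Over endothelial-like cells it was 1.18 without the macrophage and 2.42 without the highest endothelial-like cell. In the 37 stromal-like cells of that library with no C1q UMI Fabp5 stood at 61.9 CPM, against 541 CPM in the 26 with one. The stromal-like cell with 241 Fabp5 UMIs was among these 26, which had 340 in all. Split in the same way, KPCA.FSTKO stromal-like cells had 173 CPM without and 148 CPM with a C1q UMI. For the whole gate of KPCA.FSTKO_hFSTL3, with its mixed cells, the Fabp5 ratios were 0.458 and 0.556, below 1. There the Apoe ratio over cancer-like cells was 79.7.

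**Figure D3:**
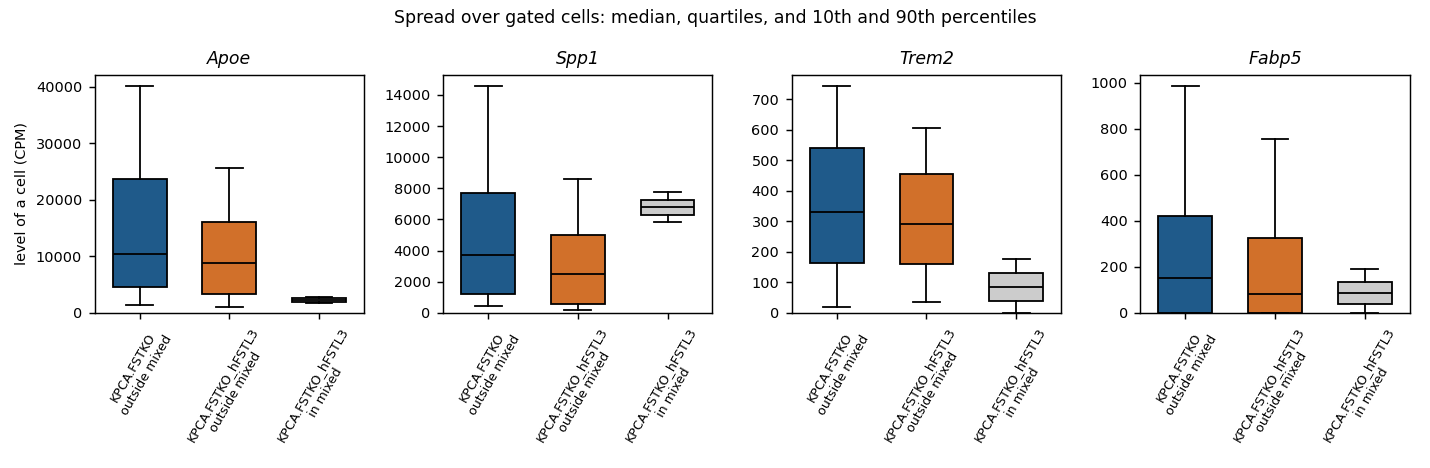
Level of Apoe, Spp1, Trem2 and Fabp5 (CPM of single cells, linear scale) in gated cells of KPCA.FSTKO outside mixed clusters (825 cells), of KPCA.FSTKO_hFSTL3 outside mixed clusters (151 cells) and of KPCA.FSTKO_hFSTL3 in mixed clusters (1196 cells), with the median as a line, the quartiles as a box and the 10th and 90th percentiles as whiskers. The boxes of mixed cells are narrow, between 6293 and 7277 CPM for Spp1, where those outside mixed clusters span 589 to 4989 CPM in the same library.

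The gated cells of the mixed clusters of KPCA.FSTKO_hFSTL3 did not carry the members as the other macrophages did. Against the 151 cells outside mixed clusters, 1 member was higher and 6 were lower (19.2% and 24.1% of 11239 genes). Fabp4 was higher, at 4.79 (95% interval 3.74 to 6.24), Spp1 stood at 1.74 (95% interval 1.71 to 1.78), and the others ran from 0.116 for Cd36 over 0.17 for Gpnmb, 0.227 for Apoe, 0.283 for Trem2 and 0.306 for Fabp5 to 0.416 for Lpl. Mixed cells inside and outside the gate had nearly the same levels. Apoe stood at 2309 CPM in the 1196 gated and 2173 CPM in the 2316 other cells of these clusters, Trem2 at 91.6 and 87.6 CPM, Gpnmb at 6.12 and 5.97 CPM and Spp1 at 6853 and 6812 CPM. Fabp4 stood at 101 and 94.9 CPM, Fabp5 at 96 and 93.2 CPM, Lpl at 31.9 and 34.4 CPM, and Cd36 at 8.35 and 9.13 CPM. Gated and other mixed cells differed in depth, with a median of 23734 and 9162 UMIs, more than in these 8 genes. Mixed cells varied less among themselves than the others in Spp1 and Apoe, though not in Trem2. The coefficient of variation over gated cells was 0.138 for Spp1 and 0.247 for Apoe, against 1.03 and 0.96 outside mixed clusters, and that of Trem2 was 0.811 against 0.692. As for pairs, the coefficient of Apoe with Trem2 over cells was 0.11 against 0.46.

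**Figure D4:**
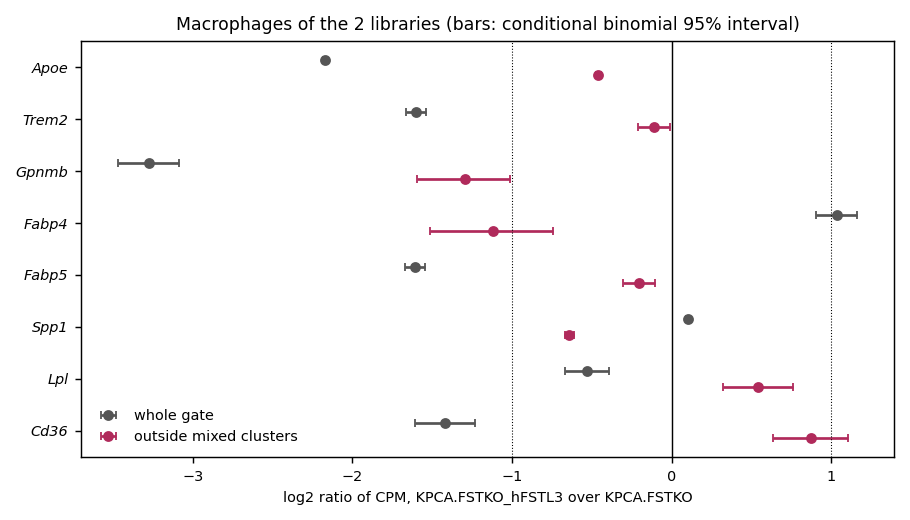
Log2 ratio of the CPM of each gene in macrophages, KPCA.FSTKO_hFSTL3 over KPCA.FSTKO, for the whole gate (gray) and for gated cells outside mixed clusters (red), with conditional binomial 95% intervals as bars, a solid line at 0 and dotted lines at a ratio of 2 in either direction. For Fabp4, Cd36, Spp1 and Lpl the 2 points lie on opposite sides of 0.

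Between the libraries, the answer depended on the mixed cells. Over the whole gate 1 member was higher in KPCA.FSTKO_hFSTL3 and 5 were lower, where 16.9% of 11921 genes were higher and 17.9% lower. Fabp4 was higher, at a ratio of 2.05 (95% interval 1.87 to 2.24). Gpnmb (0.103), Apoe (0.222), Fabp5 (0.328), Trem2 (0.33) and Cd36 (0.374) were lower, and Lpl (0.692) and Spp1 (1.07) lay between. Outside mixed clusters none of the 8 was higher and 2 were lower, against 1.65% and 1.81% of 9360 genes. These were Gpnmb, from 1127 UMIs in 825 to 109 UMIs in 151 cells, at a ratio of 0.407 (95% interval 0.331 to 0.496), and Fabp4, at 0.46 (95% interval 0.35 to 0.596). The Fabp4 call rested on single cells, since 1 macrophage held 320 of 585 UMIs in KPCA.FSTKO and 1 held 38 of 64 in KPCA.FSTKO_hFSTL3. Its ratio was 1.01 without the former, 0.188 without the latter and 0.414 without both. The Gpnmb ratio was below 1 in the whole gate and outside mixed clusters, at 0.482 within the macrophage-like cluster and at 0.54 as a mean over cells outside mixed clusters. Gpnmb was also lower in KPCA.FSTKO_hFSTL3 in stromal-like (9.04 against 29.7 CPM) and cancer-like cells (4.69 against 12.1 CPM). The Fabp4 ratio was above 1 in the whole gate and below 1 outside mixed clusters, and it was 1.13 within the macrophage-like cluster. That cluster held the macrophage with 38 UMIs but not the one with 320, and the ratio there without the former was not taken.

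The other 6 members moved by less than 2 times outside mixed clusters. Spp1 stood at 0.641 (95% interval 0.628 to 0.653), Apoe at 0.727 (95% interval 0.719 to 0.736), Fabp5 at 0.868 (95% interval 0.808 to 0.931) and Trem2 at 0.927 (95% interval 0.864 to 0.994), all below 1. Lpl, at 1.45 (95% interval 1.25 to 1.69), and Cd36, at 1.83 (95% interval 1.55 to 2.15), lay above 1, Cd36 at percentile 97.3 and Lpl at percentile 91.4 of the genes with at least 100 UMIs. Within the macrophage-like cluster the Cd36 ratio was 2.17. The median log2 ratio was -0.33 over the 8 members and 0.08 over all genes. Cd36 and Lpl rested on few cells, and thinned to 1000 UMIs per cell, which leaves few of their UMIs, their ratios were 0.943 and 1.07. The acinar markers, at 1489 CPM in KPCA.FSTKO_hFSTL3 against 87 CPM, and the erythroid markers, at 1837 against 251 CPM, moved with the library also outside mixed clusters, as did the monocyte markers, at 2376 against 4659.7 CPM. Their part in these ratios was not tested.

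The partners of the 8 genes were read from 5 lists in the same way, beside the 16.9% of all genes higher and 17.9% lower over the whole gate and the 1.65% and 1.81% outside mixed clusters given above. The 6 TREM2 signaling genes were all lower in KPCA.FSTKO_hFSTL3 over the whole gate (Tyrobp 0.335, Hcst 0.353, Syk 0.193, Plcg2 0.238, Inpp5d 0.275 and Vav1 0.27), and none of the 6 was higher or lower outside mixed clusters, where they ran from 0.774 for the adaptor Hcst to 1.45 for the phosphatase gene Inpp5d and Tyrobp stood at 1.03. Of 17 lysosomal genes and their MiT/TFE regulators, 13 were lower and none higher over the whole gate (among them Ctsb, Ctsd, Ctsl, Lamp1, Lamp2, Hexa, Grn, Atp6v0d2, Mitf, Tfeb, Tfec and Mmp12), with Atp6v0d2 lowest at 0.0929 and Cd63 highest at 1.24. Outside mixed clusters none of the 17 was called, with Ctsl lowest at 0.518, and Atp6v0d2, Ctsb and Ctsd, the genes nearest to Gpnmb, stood at 0.563, 0.975 and 0.897. None of the 17 genes had a ratio there as low as the 0.407 of Gpnmb, whereas over the whole gate Atp6v0d2 lay below Gpnmb (0.103). The medians of the log2 ratio outside mixed clusters were 0.19 for TREM2 signaling and -0.04 for the lysosomal genes, and over the whole gate -1.87 and -1.36, beside -0.06 over all genes.

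The genes of lipid uptake, storage and efflux were read against the same shares of all genes. Over the whole gate 11 of 15 with enough UMIs were lower and none higher. The lower ones were the scavenger receptor genes Msr1 and Olr1, the cholesterol exporters Abca1 and Abcg1, their regulator Nr1h3, the droplet coat gene Plin2, and Soat1, Acsl1, Apoc2, Lipa and Npc1, from 0.195 for Abcg1 up, while Apoc1 was highest at 1.65. Outside mixed clusters 1 of 13 was lower, Olr1 at 0.474, and the lysosomal lipase gene Lipa was highest at 1.49. Of 11 receptors of osteopontin and ApoE, Itgb3 (3.49) and Vldlr (3.73) were higher and Cd44, Itga4, Itga9 and Lrp1 lower over the whole gate, with Itga4 lowest at 0.243. Outside mixed clusters none of 9 was called, from 0.651 for Vldlr to 1.44 for Itga4. Of 4 partners of lipoprotein lipase, Gpihbp1 (2.09) and the inhibitor Angptl4 (4.86) were higher over the whole gate and Sel1l was lowest at 0.594, whereas outside mixed clusters Gpihbp1 was lower at 0.134, from 4 UMIs in KPCA.FSTKO_hFSTL3, and Angptl4 was highest at 1.26. The median log2 ratios of these 3 lists were -1.50, -0.58 and 0.40 over the whole gate and -0.15, -0.01 and 0.17 outside mixed clusters.

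**Figure D5:**
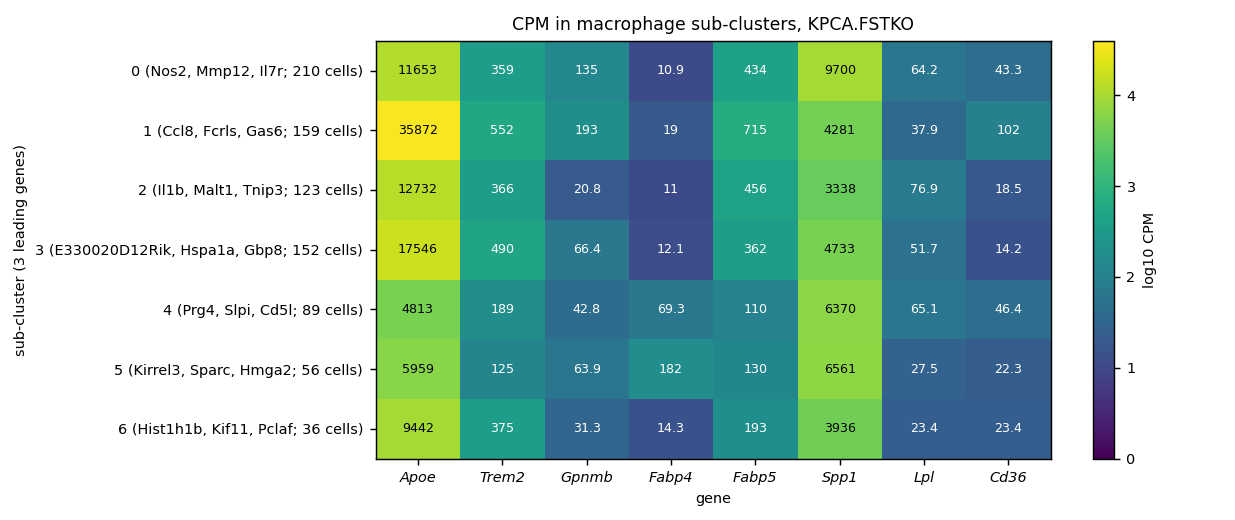
Level of the 8 genes (columns, CPM printed in each cell, color on a log10 scale) in the 7 sub-clusters of KPCA.FSTKO macrophages outside mixed clusters (named by number, 3 leading genes and number of cells). Apoe, Trem2, Gpnmb, Fabp5 and Cd36 are highest in the sub-cluster led by Ccl8, Spp1 in that led by Nos2.

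Macrophages outside mixed clusters were split further to see whether the members rise in the same cells. In KPCA.FSTKO, 5 of the 8 had their highest level in 1 sub-cluster, led by Ccl8, Fcrls and Gas6 and with the tissue macrophage genes Cd163 and Lyve1 among its leading genes (159 cells). Over both libraries 9 of the 10 macrophage markers were also raised in this sub-cluster. In KPCA.FSTKO it had 5414 CPM of C1qa, a gene of the gate, against 1080 to 3871 CPM in the others. The share of all genes that were highest there was not taken. There Apoe stood at 35872 CPM, Trem2 at 552 CPM (517 to 588), Gpnmb at 193 CPM (173 to 215), Fabp5 at 715 CPM (676 to 757) and Cd36 at 102 CPM (87.3 to 118). Spp1 was highest elsewhere, at 9700.2 CPM (9591 to 9810.3) in 210 cells led by Nos2, Mmp12 and Il7r, against 4281 CPM in the Ccl8-led cells. Those Nos2-led cells had the next highest Gpnmb level, 135 CPM (123 to 149). Lpl was highest, at 76.9 CPM (64.4 to 91.2), in 123 cells led by Il1b and Malt1, where Gpnmb (20.8 CPM) and Cd36 (18.5 CPM) were low. Its interval overlapped those of the Nos2-led cells (55.6 to 73.8) and of cells led by Prg4 (53.4 to 78.6).

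Of the remaining sub-clusters, cells led by Prg4, Slpi and Cd5l, genes of peritoneal macrophages, had the lowest Apoe level, 4813 CPM in 89 KPCA.FSTKO cells, with 189 CPM of Trem2 and 109.7 CPM of Fabp5. Fabp4 stood at 182 CPM in 56 cells led by Kirrel3, Sparc and Hmga2, in which 10 of the 13 cancer markers and 5 of the 12 fibroblast markers were raised, but 1 cell had 320 of the 351 UMIs there. Without it the level was 16.4 CPM, below the 69.3 CPM of the Prg4-led cells. Cells led by the cell-cycle genes Kif11 and Top2a (36 cells) had 375 CPM of Trem2 and 31.3 CPM of Gpnmb, and 152 cells led by Hspa1a had 17546 CPM of Apoe and 490.4 CPM of Trem2. In KPCA.FSTKO_hFSTL3, Gpnmb, Fabp5, Cd36, Lpl and Fabp4 were highest in the 7 Hspa1a-led cells. For each gene 1 cell held most or many of their UMIs, in this order 25 of 27, 197 of 325, 14 of 24, 7 of 18 and 38 of 39, so that the order of sub-clusters is given for KPCA.FSTKO.

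In 2 sub-clusters both libraries had more than 40 cells, so that levels could be set side by side. In the Ccl8-led cells (159 and 43 in the order of the libraries), Apoe went from 35872 to 18677 CPM, Gpnmb from 193 to 52.9 CPM (36.4 to 74.3), Fabp5 from 715 to 297 CPM (256 to 343) and Spp1 from 4281 to 2647 CPM. Trem2 stood at 460.4 CPM (409 to 517), Cd36 at 83.4 CPM (62.3 to 109) and Lpl at 65.8 CPM (47.2 to 89.2) against 37.9 CPM (29.2 to 48.4). In the Il1b-led cells (123 and 46 cells), Cd36 stood at 18.5 CPM (12.7 to 26.1) in KPCA.FSTKO and 91.8 CPM (73 to 114) in KPCA.FSTKO_hFSTL3, where 1 cell had 41 of 82 UMIs, and Lpl at 76.9 and 123 CPM (101 to 148). Fabp5 went from 456 to 228 CPM and Spp1 from 3338 to 3379 CPM. The Nos2-led cells, the largest sub-cluster of KPCA.FSTKO, were few in KPCA.FSTKO_hFSTL3, 10 of its 151 macrophages, against 210 of 825.

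Over single macrophages the members varied together in few pairs. Of the 28 pairs, the highest coefficient in KPCA.FSTKO was that of Apoe with Trem2 (r = 0.49 over 825 cells, and 0.46 over 151 KPCA.FSTKO_hFSTL3 cells). It was followed by Trem2 with Fabp5 (0.30 and 0.13), Gpnmb with Fabp5 (0.29 and 0.54) and Apoe with Fabp5 (0.27 and 0.10). Gpnmb with Cd36 stood at 0.10 and 0.41, and Lpl with Cd36 at 0.07 and 0.34. Apoe with Lpl (-0.17 and -0.08) and Apoe with Spp1 (-0.13 and -0.05) were below 0 in both libraries. With cells thinned to 1000 UMIs the 6 coefficients above 0 were lower in KPCA.FSTKO. In the same order of libraries they were 0.23 and 0.25 for Apoe with Trem2, 0.04 and 0.16 for Trem2 with Fabp5, 0.13 and 0.03 for Gpnmb with Fabp5, 0.13 and 0.11 for Apoe with Fabp5, -0.01 and 0.34 for Gpnmb with Cd36 and 0.02 and 0.05 for Lpl with Cd36. The thinned 0.34 of Gpnmb with Cd36 rested on 2 KPCA.FSTKO_hFSTL3 cells with a UMI of both genes, against 42 for Apoe with Trem2. Macrophages were also divided by Arg1, which many tumor macrophages express. Among KPCA.FSTKO macrophages the 750 cells that kept an Arg1 UMI after thinning had 384 CPM of Fabp5 and 92.8 CPM of Gpnmb, against 154 and 47.4 CPM in the 73 without, while Apoe stood at 13909 and 14708 CPM. In KPCA.FSTKO_hFSTL3 the 109 cells with and the 42 without Arg1 had 46.2 and 5.21 CPM of Gpnmb and 369 and 149.9 CPM of Fabp5.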

How the data were processed

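Omental tumors of both genotypes were dissociated and sequenced with 10x Genomics droplet 3′ single-cell RNA-seq. The authors deposited, for each library, a matrix of raw UMI counts per gene and barcode, aligned to mm10 with Cell Ranger (3.1.0 in the submitters' processing notes, 7.2.0 in the matrix header). Whether intronic reads were counted is not given in the sources used here. The barcodes deposited, 7582 and 4244, are the number that the study's methods give as cells left after quality control. Cells with a mitochondrial share under 20% and more than 200 and fewer than 8000 genes were kept.

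Cells of both libraries were log-normalized and clustered together in Seurat 5.3.0 (R 4.3.3) with 2000 variable genes from which the 8 members were removed, 10 principal components, 20 neighbors and a resolution of 0.8, and clusters were named from marker lists. A marker counted as raised at 1.5 times its mean elsewhere and in at least 25% of cells, a class name needed at least 3 raised markers, and clusters with at least 50% of the acinar markers raised were called mixed, a rule written after the clusters had been seen. Levels are UMIs per 1000000 UMIs of the class (CPM), with exact Poisson intervals for levels, Clopper-Pearson intervals for shares and conditional binomial intervals for ratios, all at 95% and for counting error only. For shares, 0 cells with a UMI were taken to allow up to 3 such cells. For levels, the limit at 0 UMIs is the upper end of the Poisson interval. Shares were also taken after thinning each cell to 1000 UMIs, leaving out shallower cells. Calls by size were checked on simulated counts, drawn per gene without differences between cells. The check does not cover calls that rest on single cells. Genes most like a member were the 3 with the highest Pearson coefficient of log-normalized UMIs among genes found in at least 10% of the gated KPCA.FSTKO cells (8642 genes), and these, the members and the called or outermost genes of the 5 lists are the genes named, beside leading genes of sub-clusters.

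Doublets were called with Scrublet (scanpy 1.11.5), which marked 90 cells of KPCA.FSTKO, 41 of them in the gate, and 1 cell of KPCA.FSTKO_hFSTL3, where it did not work, so none were removed in the values given. TMM factors came from edgeR 4.0.16. Figures were drawn with matplotlib 3.10.9. The 8 genes, the lists and the tests were chosen with earlier results of these data known. Sub-clustering (resolution 0.8) and 8 of the alternatives, those that combine leaving out mixed clusters with another choice or apply it to the class comparisons, were chosen after seeing the data. With 1 library per genotype, no test across genes was made. Some genes among those most like a member and in the lists are not reported here.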

Additional observations from a re-analysis of the deposited data

Results flagged for a closer look

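Fabp5 differed in direction between the libraries when the whole gate was set against other classes. Against endothelial-like cells the ratio was 2.59 in KPCA.FSTKO and 0.556 in KPCA.FSTKO_hFSTL3, and against stromal-like cells it was 2.22 and 0.458. With 1 library per genotype the difference was not tested. With mixed clusters left out, the KPCA.FSTKO_hFSTL3 ratios were 1.48 and 1.22. These rested on few cells, since 1 of the 151 macrophages had 197 of 952 Fabp5 UMIs, and without it the ratios were 1.18 and 0.976. Without the highest cell on each side they were 1.93 and 2.41.

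Pericyte-like cells, which entered none of the class comparisons, had high levels of both fatty acid carriers, with 29.8% of the Fabp4 and 6.2% of the Fabp5 UMIs of KPCA.FSTKO. Fabp4 stood at 4017 CPM in the 46 such cells of KPCA.FSTKO, and Fabp5 at 797 CPM there and at 825 CPM in the 11 such cells of KPCA.FSTKO_hFSTL3. In KPCA.FSTKO_hFSTL3 the Fabp4 level of pericyte-like cells was 1378 CPM, with an interval that overlapped that of endothelial-like cells.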

How the results depend on the processing

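With 1 library per genotype, no library could be left out. No paired analysis was possible because each genotype has 1 library. Over the 8 members and all alternatives, 28 ratios between the libraries stayed within the interval of the first value, 88 moved outside it and 12 turned direction. Between classes within a library, 4 ratios turned direction, all of them of KPCA.FSTKO_hFSTL3 against stromal-like cells. Depth limits Cd36, Lpl, Gpnmb and Fabp4, which most macrophages lack a UMI of, and the 151 macrophages of KPCA.FSTKO_hFSTL3 outside mixed clusters.

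Members higher in KPCA.FSTKO_hFSTL3 macrophages numbered 1 in the whole gate, 0 with at least 10 or 20 C1q UMIs, with a mitochondrial share under 10%, with Scrublet doublets out, with mixed clusters out, and with mixed clusters out plus TMM, thinning, a mean over cells or the highest cell of each library out, and 2 with mixed clusters and the top 5% of cells out. Members lower numbered 5 in the whole gate, 2 with mixed clusters out or with TMM or the highest cells out added, 1 in the macrophage-like cluster, with the top 5% also out or after thinning, and 0 as a mean over cells without mixed clusters. Leaving mixed clusters out turned Fabp4 to 0.46, and to 0.567, 0.423, 0.797 and 0.414 with the top 5% out, TMM, a mean over cells and the highest cells out, but it was 1.01 with the highest KPCA.FSTKO cell alone out. Cd36 turned to 1.83, and to 2.9, 1.68, 1.94 and 1.63 under the same 4 additions and 2.17 in the macrophage-like cluster, and Trem2 turned to 1.09 after thinning. Beyond the cells each alternative removes, the cause was not tested.

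Against stromal-like cells of KPCA.FSTKO_hFSTL3, Fabp4 turned to 1.34 and Fabp5 to 1.44 with the top 5% of cells out, and Fabp5 to 1.22 with mixed clusters out and 2.41 with the highest cells also out, though it was 0.976 without the highest macrophage alone. Members lower there numbered 3, and 1 with the top 5% out, with TMM or after thinning. Members higher there numbered 3, and 5 with mixed clusters out, with or without the highest cells, where also 1 rather than 0 was lower against cancer-like cells. With the highest cells out 1 rather than 2 was lower against endothelial-like cells. Shares of all genes are not given for these class comparisons of KPCA.FSTKO_hFSTL3. Their counts of members therefore show only how calls change with the processing, and not whether the members differ from other genes. Over all genes, 2014 were higher and 2139 lower between the libraries in the whole gate, 154 and 169 with mixed clusters out, 3150 and 3560 at a minimum ratio of 1.5, and 3194 higher at a minimum of 20 UMIs. Genes lower in macrophages than in endothelial-like cells of KPCA.FSTKO numbered 1603, and 2727 at a ratio of 1.5, 2687 at 20 UMIs and 1021 with TMM. Those lower than in stromal-like cells numbered 1933, and 3055 at 20 UMIs.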
